A study of Mus musculus with 12 samples.

Results

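The insulin and insulin-like growth factor (IGF) system was followed through 10 genes in single-cell RNA sequencing of the stromal vascular fraction (SVF) of mouse white fat. The 10 genes are the growth factor Igf1, the receptors Igf1r and Insr, the docking proteins Irs1 and Irs2, and the IGF-binding proteins Igfbp3, Igfbp4, Igfbp5, Igfbp6 and Igfbp7. They were taken by name from the 31053 genes listed in each of 12 libraries, and all 10 were found. The SVF is what remains of a fat pad after enzymatic digestion once the buoyant adipocytes have been taken away. Epididymal fat (eWAT) and inguinal fat (iWAT) were each read in 6 libraries, 2 per group. WT-Veh were lean C57BL/6J males given vehicle (methylcellulose), ob/ob-Veh were obese, leptin-deficient Lepob/Lepob males given the same vehicle, and ob/ob-Rosi were Lepob/Lepob males given rosiglitazone, an agonist of the nuclear receptor PPARγ, at 30 mg/kg by gavage for 3 days. All mice were 12 weeks old, and the study speaks of the libraries as individual mice. No lean mice given rosiglitazone were analysed here, so the drug can be compared with vehicle in obese mice alone.

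IGF1 is a secreted peptide that acts through its own receptor tyrosine kinase, IGF1R, which is closely related to the insulin receptor. Both receptors recruit the docking proteins IRS1 and IRS2, which carry the signal to PI3-kinase and AKT. The IGF-binding proteins are secreted carriers that hold IGFs outside the cell and can limit or prolong their action, and IGFBP7 binds IGFs weakly compared with the others. In fat, IGF1 comes from stromal cells and macrophages as well as from the circulation, and insulin and IGF1 signalling promotes the formation of adipocytes from adipocyte progenitor cells (APCs).

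The genes lie on 7 chromosomes (GRCm38, GENCODE annotation) and are all protein-coding. Igf1 is at chr10:87858265-87937042 on the plus strand, Igf1r at chr7:67952827-68233668 on the plus strand, and Insr at chr8:3122061-3279617 on the minus strand. Irs1 is at chr1:82233101-82291416 and Irs2 at chr8:10984681-11008458, both on the minus strand. Igfbp5 (chr1:72857932-72874884) shares chromosome 1 with Irs1, and Igfbp3 (chr11:7206086-7213923) shares chromosome 11 with Igfbp4 (chr11:99041244-99054392). Igfbp6 is at chr15:102144362-102149511 and Igfbp7 at chr5:77349240-77408041. RefSeq promoters (GRCm38.p6, from 250 bases before to 50 bases after the start site) were at hand for 9 of the 10 genes. Both strands were searched for the TATA box TATAAA and for the E box CACGTG. They were also searched for the CCAAT box, for the GC box written GGGCGG and for the FoxO site written GTAAACA. The 4 windows below are shown because the docking protein genes share a motif, while Igf1 is the ligand of the system and Igfbp4 a carrier gene with a TATA box. Capitals mark the motif, which is on the gene's own strand except in Igf1, where ATTGG is CCAAT read on the other strand. None of these 4 matches overlapped a match to another motif searched.
Irs1 at chr1:82291537-82291566, minus strand: cagaggctccgtCACGTGttttgctcctct
Irs2 at chr8:11008956-11008985, minus strand: gtaacgcagagtCACGTGttgttttgctct
Igf1 at chr10:87860957-87860986, plus strand: ctgcctagagcgATTGGtacacacagggcg
Igfbp4 at chr11:99041204-99041233, plus strand: ccagggggccggTATAAAgtcccgggagcc
Distances are counted from the RefSeq start sites, which differ from the GENCODE gene ends given above for Irs1 and Irs2, and the Igf1 window lies within the GENCODE gene. The E box starts 115 bases before the RefSeq start of Irs1 and 44 bases before that of Irs2. These were the members with that motif, which 7.15% of 32851 promoters hold. TATAAA was found in Igfbp4, 28 bases before the start, and in Igfbp6 on the other strand, 148 bases before the start (13.6% of all promoters). CCAAT was found in Igf1, Irs2 and Igfbp6 (37.4% of all promoters), and GGGCGG in Irs1, Irs2, Igf1r and Igfbp7 (35.7%). No member promoter held GTAAACA, found in 3.65% of all promoters. A match describes the letters and shows no binding.

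Filtering left 126095 cells, 6472 to 17500 per library, and 19593940 to 66315901 UMIs (RNA molecules counted once each) per library. Cells were grouped by marker genes into classes such as progenitor-like and preadipocyte-like (the 2 kinds of APC), perivascular macrophage-like (PVM-like), lipid-associated macrophage-like (LAM-like) and endothelial cell-like (EC-like). The iWAT library labelled WT-Veh replicate 1 stood apart, with 45.5% of its cells in clusters without a name and a median of 1132 UMIs per cell. Scrublet called 24.5% of its cells doublets (droplets with more than 1 cell), against 1.57% to 4.74% in the other iWAT libraries. Doublets were kept in the main tests of this and every other library. The APCs of iWAT WT-Veh replicate 1 stood apart too. Of its 943 preadipocyte-like cells 696, and of its 387 progenitor-like cells 261, lay in clusters led by genes of lymphocytes such as Igkc, Ighm and Ptprc or Trbc2 when set against the library's other APCs, with 9 of 10 markers of the APC kind past the limit but none among the 10 leading genes. Another 6 APC clusters had among their leading genes a gene from the lists for macrophages or mesothelial cells, and none of their own kind. These genes were Gas6, Pf4 with Tyrobp, C1qc or Wt1. The 6 clusters held 538 and 350 preadipocyte-like cells of eWAT ob/ob-Rosi replicates 1 and 2, 543 of iWAT WT-Veh replicate 2 and 298 of iWAT ob/ob-Rosi replicate 1. They also held 644 progenitor-like cells of iWAT ob/ob-Veh replicate 1 and 89 of iWAT ob/ob-Rosi replicate 1. Tests in the APC classes were therefore repeated without these 8 clusters, a choice made after the values were seen. The iWAT clusters with Gas6 also had Mgp and Fmo2 among their leading genes. A like cluster of iWAT ob/ob-Rosi replicate 2 (513 cells, with Cilp, C7 and Mgp) stayed in. The refit thus left out like APC clusters unevenly, and it cannot tell them from clusters that hold RNA of other cells. Of 31 called tests of the members in these classes, beside the differences of effects between the classes, 31 were called again, and 2 of those differences lost their call. Any 2 libraries shared at most 99 barcodes. That number, 1.05% of the smaller library, was shared by eWAT ob/ob-Rosi replicate 1 and iWAT WT-Veh replicate 1. The libraries eWAT ob/ob-Veh replicate 1 and iWAT ob/ob-Rosi replicate 1 shared 94 (1.03%). No other pair shared more than 70, or more than 0.625%. Whether cells or RNA passed between libraries was not tested. The ob mutation leaves a Lep transcript that 3′ counting cannot tell from the normal one, so Lep RNA checks no label, and its UMIs were few. Per 100 UMIs of Adipoq, another adipocyte transcript, eWAT libraries held 28.0 and 42.5 Lep UMIs under WT-Veh, 3.95 and 16.2 under ob/ob-Veh, and 240 and 390.1 under ob/ob-Rosi. The iWAT values were 20.1 and 31.6, 36.4 and 15.1, and 164 and 141. LAM-like cells, which are known to gather in obese fat, numbered 1495 and 639 in eWAT under the label WT-Veh, 4 and 14 under ob/ob-Veh, and 729 and 1623 under ob/ob-Rosi. Lipid-laden macrophages can leave with the floating adipocyte layer, which was not sequenced, so their number checks no label either. Groups are called by their labels.

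Levels are given as CPM, the UMIs of a gene per 1000000 UMIs of a class in a library. The strongest Igf1 classes were mesenchymal and macrophage-like (heat map of levels by class). In eWAT preadipocyte-like cells led at 599 ± 636 CPM (SD, n = 6 libraries) and PVM-like cells followed at 471 ± 65.1, and their library ranges overlapped. The LAM-like level of 296 ± 37.0 (n = 4) lay wholly below the PVM-like range. In iWAT PVM-like cells led at 571 ± 203 CPM (n = 6), clear of LAM-like cells at 319 ± 22.5 (n = 5), while preadipocyte-like cells held 244 ± 275 and progenitor-like cells 69.8 ± 47.6. DC-like cells had the lowest Igf1 in both depots, at 38.0 ± 13.8 and 34.4 ± 29.1 CPM. The spread in preadipocyte-like cells includes the group differences described further on.

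**Figure D1:**
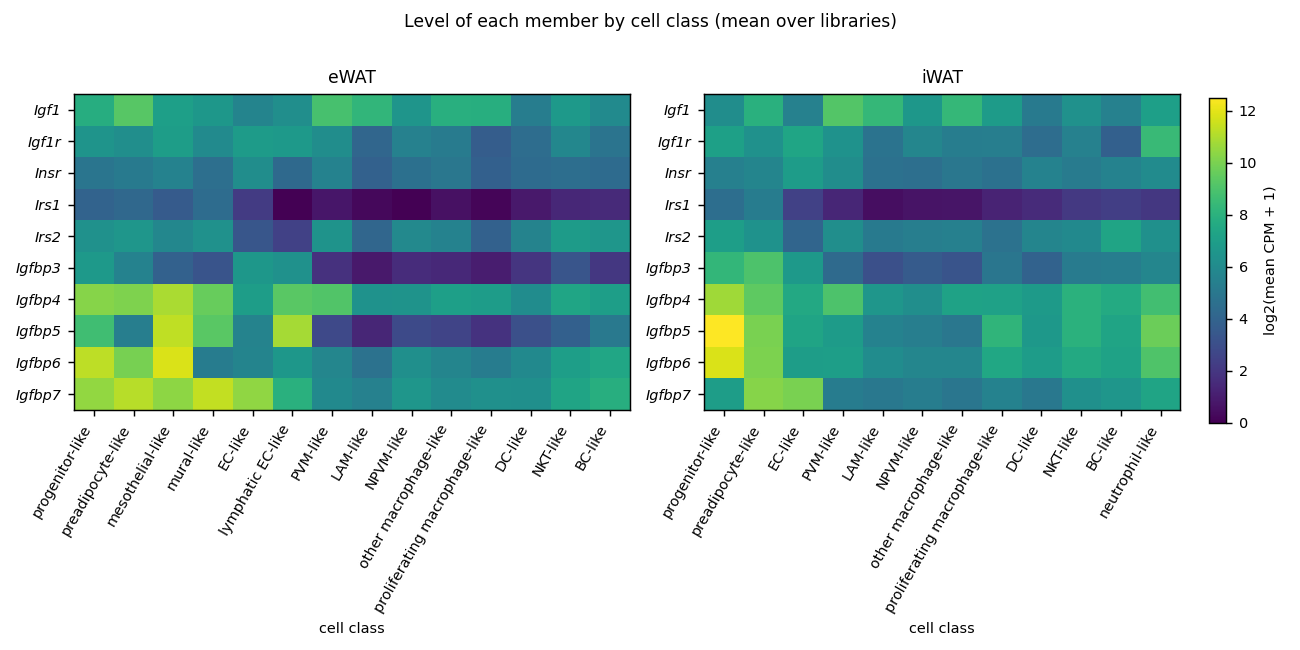
Mean level of each of the 10 genes by cell class in eWAT (left, 14 classes) and iWAT (right, 12 classes), as the colour of log2(mean CPM + 1) over the libraries with at least 20 cells of a class. Igfbp6 is brightest in the mesothelial-like and APC classes, Igfbp5 of eWAT in mesothelial-like, lymphatic EC-like and mural-like cells, and Igf1 in preadipocyte-like, PVM-like and LAM-like cells.

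Both receptors were found in every class. Insr was highest in EC-like cells of both depots (67.9 ± 18.5 CPM in eWAT and 118 ± 92.2 in iWAT, n = 6), and the ranges of these classes overlapped those of the next. Igf1r was led by mesothelial-like cells in eWAT (125 ± 54.8 CPM), closely followed by EC-like cells (116.5 ± 47.2). In iWAT neutrophil-like cells held 357 ± 116.7 CPM (n = 4) on 104 UMIs in all, against 162 ± 61.1 in EC-like cells, with overlapping ranges. LAM-like cells were at the low end for both receptors, with 16.2 ± 3.14 CPM of Igf1r and 13.9 ± 2.39 of Insr in eWAT (n = 4).

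The docking proteins parted company. Irs1 was highest in the APC classes among those with more than 3 UMIs of it, at 17.5 ± 14.6 CPM in eWAT preadipocyte-like and 14.8 ± 6.16 in progenitor-like cells, and at 37.5 ± 24.4 and 21.7 ± 15.2 in iWAT. Mesothelial-like cells held 10.8 ± 6.60 and mural-like cells 20.6 ± 5.18 (n = 2, 3 UMIs). EC-like cells followed at 3.49 ± 1.94 in eWAT and 4.27 ± 2.59 in iWAT, and LAM-like cells of eWAT held 0.198 ± 0.207 (n = 4). Irs2 was found in leukocytes too. It was highest in NKT-like cells of eWAT (115 ± 92.4 CPM, natural killer and T cells) and in B cell-like cells of iWAT (156 ± 45.2, n = 5), and lowest or close to lowest in EC-like cells (9.24 ± 5.17 and 16.1 ± 12.3).

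Igfbp4, Igfbp5 and Igfbp6 shared a leading class in each depot, while Igfbp3 and Igfbp7 were led by others. Mesothelial-like cells, the covering of the epididymal pad, led eWAT for Igfbp4 (1945 ± 781 CPM), Igfbp5 (2499 ± 725) and Igfbp6 (3593 ± 982). Igfbp5 of eWAT was next highest in lymphatic EC-like (1831 ± 1238, n = 3) and mural-like cells (632 ± 102, n = 2), ahead of progenitor-like cells (400.4 ± 188). Mesothelial-like cells of iWAT numbered 29 in all, too few for a level. In iWAT progenitor-like cells led for the same 3 genes, at 1690.4 ± 568, 5610.1 ± 2089 and 3539 ± 1736 CPM, each clear of the range of the next class. Igfbp3 was led by progenitor-like (108 ± 101) and EC-like cells (96.0 ± 53.5) in eWAT, and by preadipocyte-like (509 ± 369) and progenitor-like cells (305 ± 129) in iWAT, with overlapping ranges in each pair. Igfbp7 was led by mural-like cells (2628 ± 1156, n = 2) and preadipocyte-like cells (2290.3 ± 949) in eWAT, and by preadipocyte-like (1189 ± 624) and EC-like cells (1024 ± 484) in iWAT. The iWAT progenitor-like level of Igfbp7 was 125 ± 36.2.

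Progenitor-like cells (Dpp4, Pi16) are the less committed APCs and preadipocyte-like cells (Icam1, Col15a1) the more committed. The clusters were formed from these same cells, so the differences between the classes are a description, given as the log2 ratio of progenitor-like to preadipocyte-like with its standard error and no p (plot of class and depot differences). Kinds were set within each library, so clusters with like leading genes could differ in kind. In eWAT ob/ob-Veh the cluster with Ogt and Ttc14 was progenitor-like in replicate 1 (860 cells) and preadipocyte-like in replicate 2 (675). For the cluster with Mfap4 it was the other way round (345 and 133 cells). In the other eWAT groups a cluster with Mfap4 was progenitor-like in WT-Veh replicate 2 (177 of 335 cells of the class). It was so too in ob/ob-Rosi replicate 1 (208 of 407). In WT-Veh replicate 1 it got neither kind (511 cells). In ob/ob-Rosi replicate 2 all 174 progenitor-like cells lay in a cluster with Mfap4 and Pi16. The progenitor-like class of eWAT thus held unlike mixtures of clusters across libraries and groups. The part of this in class, group and depot differences was not tested. In eWAT 5 of 10 members passed the threshold used throughout, adjusted p no higher than 0.05 with a 1.1-fold or larger change, against 18.7% of all genes. In iWAT 8 of 10 did, against 41.4%. Igfbp5 was higher in progenitor-like cells by 3.33 ± 0.292 in eWAT and 2.78 ± 0.319 in iWAT, and Igfbp6 by 1.25 ± 0.104 and 1.81 ± 0.238, each in 6 of 6 libraries. Igfbp7 went the other way in 6 of 6 libraries of each depot, at −0.77 ± 0.126 and −3.07 ± 0.238.

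Whether these class ratios differ between depots was not tested. The ligand and the docking proteins passed in iWAT alone. Igf1 was lower in progenitor-like cells there in 6 of 6 libraries (−1.56 ± 0.25), as was Irs1 (−0.80 ± 0.0950), while Irs2 (0.64 ± 0.167) and Igf1r (0.86 ± 0.0916) were higher in 6 of 6. In eWAT the Igf1 ratio was −0.76 ± 0.425 and lay below 0 in 3 of 6 libraries. Igfbp4 was higher in iWAT progenitor-like cells (1.41 ± 0.119) and close to even in eWAT (0.12 ± 0.102). Insr did not pass in either depot. The eWAT passes of Igfbp3 (1.22 ± 0.384) and Igf1r (0.31 ± 0.0943) were fragile. Igfbp3 did not pass with a finer clustering or library-total scaling, nor Igf1r with a finer clustering, thinning of each cell to 700 UMIs or DESeq2, and the number of calls was 3 without either ob/ob-Rosi library or without the second library of WT-Veh or of ob/ob-Veh, and 4 without either of the other libraries.

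**Figure D2:**
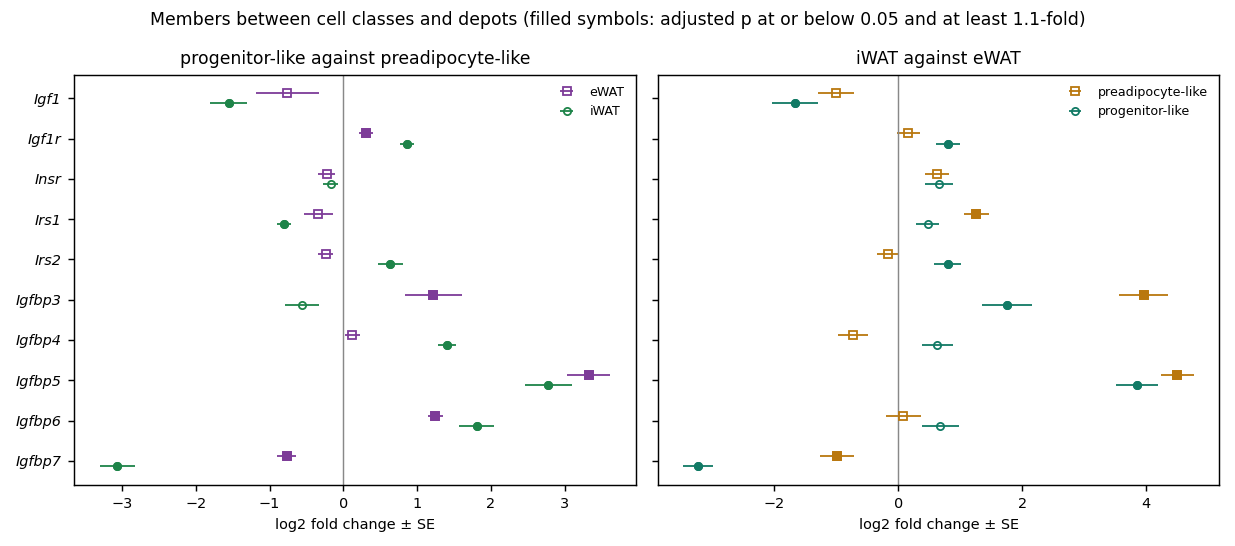
Log2 fold changes ± SE of the 10 genes (rows) between progenitor-like and preadipocyte-like cells in each depot (left) and between iWAT and eWAT in each of these classes (right). Filled symbols passed the threshold. Igfbp5 lies to the right in all 4 series and Igfbp7 to the left, farthest in iWAT progenitor-like cells.

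The joint effect of leptin deficiency and obesity, which cannot be told apart here, was read as the log2 ratio of ob/ob-Veh to WT-Veh, the ob/ob effect. That of treatment was read as the ratio of ob/ob-Rosi to ob/ob-Veh, the Rosi effect. Both use the ob/ob-Veh libraries, so opposite signs are not independent of each other. UMIs were summed per library and class and tested with edgeR's quasi-likelihood test. With 2 libraries per group an exact permutation test cannot go below p = 0.33, so each adjusted p rests on the variance model. In eWAT 16 of 85 tests of the members over 10 classes passed for the ob/ob effect, 13 higher and 3 lower, against 6.16% of all gene tests. For the Rosi effect 15 of 85 passed, 4 higher and 11 lower, against 5.48%. The first number was 9 without either WT-Veh library and 10 without either ob/ob-Veh library. The second was 23 without ob/ob-Rosi replicate 1, 4 without ob/ob-Rosi replicate 2 and 8 without ob/ob-Veh replicate 1.

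Igf1 had the largest change of the members in eWAT preadipocyte-like cells. The WT-Veh libraries held 191 and 202 CPM, the ob/ob-Veh libraries 1404 and 1436, and the ob/ob-Rosi libraries 202 and 159.7. Both ob/ob-Veh libraries stood far above the other 4, which lay together. The ob/ob effect was 2.77 ± 0.297 (6.82-fold, adjusted p = 0.000384), and that of Rosi −2.89 ± 0.298 (adjusted p = 0.000296), and both passed in 16 of 16 refits with other settings or with 1 library left out. Across the class 7.3% of all genes passed for the ob/ob effect and 7.26% for the Rosi effect. APC-like cells of eWAT given neither kind, and so left out, numbered 2351 under WT-Veh, 163 under ob/ob-Veh and 1107 under ob/ob-Rosi. Preadipocyte-like cells numbered 2512, 4049 and 3378. The part of the cells left out in the group differences was not tested.

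The change in preadipocyte-like cells is also seen in the share of cells with an Igf1 UMI. With every cell thinned to 700 UMIs, the share was 11.6% and 10.3% under WT-Veh, 44.2% and 37.3% under ob/ob-Veh, and 12.6% and 9.89% under ob/ob-Rosi. Unthinned it was 28.6% and 37.2%, 84.1% and 67.3%, and 33.2% and 45.1%, at median depths of 1910.5 to 6859 UMIs per cell. EC-like cells, which should hold little Igf1, gave thinned shares of 2.50% to 5.39% at median depths of 1589 to 4363 UMIs, below every library of preadipocyte-like cells.

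Progenitor-like cells of the same fat pads did not show this. Igf1 was at 184 and 235 CPM under WT-Veh, 202 and 272 under ob/ob-Veh, and 252 and 195 under ob/ob-Rosi, and the 3 groups overlapped. The ob/ob effect there was 0.13 ± 0.299 (adjusted p = 0.884), and that of Rosi −0.03 ± 0.299 (adjusted p = 0.975). The difference of the effects between the classes, a test chosen after these values were seen, was 2.61 ± 0.183 for the ob/ob effect (adjusted p = 4.44e-06, 3.28% of all genes called) and −2.86 ± 0.181 for the Rosi effect (adjusted p = 2.32e-06, 2.84% of all genes called).

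**Figure D3:**
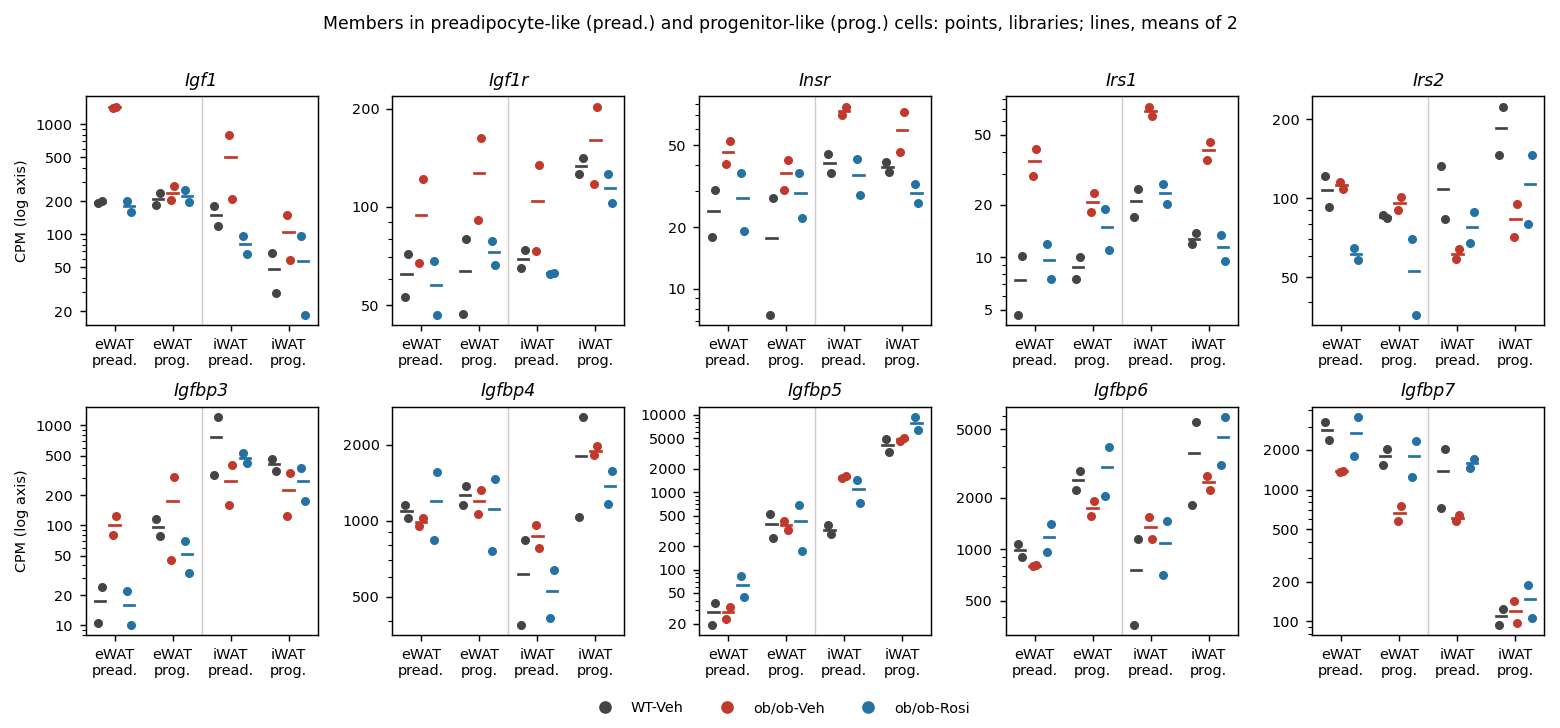
Each of the 10 genes in preadipocyte-like and progenitor-like cells of eWAT and iWAT, in CPM on a log axis, with a point for each library and a line for the mean of the 2 libraries of a group. In eWAT preadipocyte-like cells the 2 ob/ob-Veh points of Igf1, Irs1 and Igfbp3 lie above all the others, and those of Igfbp7 below.

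Irs1 moved in the same cells. Its level in eWAT preadipocyte-like cells was 4.69 and 10.1 CPM under WT-Veh, 29.1 and 41.7 under ob/ob-Veh, and 11.9 and 7.47 under ob/ob-Rosi. No ob/ob-Veh value overlapped those of the other groups. The ob/ob effect was 2.14 ± 0.379 (adjusted p = 0.00578), and that of Rosi −1.78 ± 0.357 (adjusted p = 0.0109). The Rosi effect did not pass without ob/ob-Rosi replicate 2 (adjusted p = 0.117), without ob/ob-Veh replicate 2 (0.0583) or with cells thinned to 700 UMIs (0.0665). In eWAT progenitor-like cells Irs1 was at 7.49 and 10.1, 18.2 and 23.3, and 18.8 and 11.1 CPM, with an ob/ob effect of 1.13 ± 0.385 (adjusted p = 0.204). The Rosi effect on Irs1 differed between the classes by −1.33 ± 0.323 (adjusted p = 0.0386), but not without either ob/ob-Rosi library or ob/ob-Veh replicate 2 (0.468, 0.21 and 0.0963) or after thinning (0.898).

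Igfbp3, the main IGF carrier of plasma, was at 10.6 and 24.1 CPM under WT-Veh, 79.7 and 124 under ob/ob-Veh, and 22.2 and 10.1 under ob/ob-Rosi in eWAT preadipocyte-like cells. Again both ob/ob-Veh libraries lay above the rest. The ob/ob effect was 2.45 ± 0.426 (adjusted p = 0.00531, 0.0509 without WT-Veh replicate 1), and that of Rosi −2.56 ± 0.421 (adjusted p = 0.00379, 0.0571 without ob/ob-Rosi replicate 2). In progenitor-like cells 1 ob/ob-Veh library held 304 CPM and the other 44.7, and neither effect passed.

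Igfbp7 and Igfbp6 stood lower under ob/ob-Veh in both APC classes of eWAT, and of these Igfbp7 had a call. Igfbp6 was at 1073 and 907 CPM under WT-Veh, 798 and 809 under ob/ob-Veh, and 964 and 1395 under ob/ob-Rosi in preadipocyte-like cells, and at 2217 and 2849, 1568 and 1914, and 2045 and 3967 CPM in progenitor-like cells, and neither effect passed in either class (adjusted p = 0.261 to 0.504). In progenitor-like cells Igfbp7 was at 1547 and 2033 CPM under WT-Veh, 577 and 745 under ob/ob-Veh, and 1237 and 2329.8 under ob/ob-Rosi. Both ob/ob-Veh libraries lay below all others. The Rosi effect of 1.48 ± 0.345 passed (adjusted p = 0.0493, against 2.31% of all genes in this class), and the ob/ob effect of −1.48 ± 0.345 did not (adjusted p = 0.0552). The Rosi call rested on each library but ob/ob-Rosi replicate 1, with adjusted p of 0.0734 to 0.369 without any 1 of the others, and was lost with thinning (0.0607) and with library-total scaling (0.0528). In these progenitor-like cells the 10 macrophage markers summed to 2062 and 1703 CPM under WT-Veh, 302 and 539 under ob/ob-Veh, and 2083 and 1939 under ob/ob-Rosi, with 7 of 10 lower under ob/ob-Veh and 8 of 10 higher with treatment. The dissociation-response genes moved the opposite way, at 5661 and 5525, 13587 and 11248, and 5227 and 2555 CPM, with 1 of 10 higher and 4 of 10 lower. Cluster 14 held 57% of the cells under WT-Veh, 47.2% under ob/ob-Veh and 41% under ob/ob-Rosi, and most of the rest lay in cluster 9 under WT-Veh and ob/ob-Rosi and in cluster 12 under ob/ob-Veh. The part of these in the Igfbp7 values was not tested. In preadipocyte-like cells the values were 3273 and 2372, 1364 and 1384, and 1792 and 3558 CPM, and neither effect passed (adjusted p = 0.0902 and 0.117). Igf1r, Insr, Irs2, Igfbp4, Igfbp5 and Igfbp6 passed in neither APC class of eWAT. Igfbp5 in preadipocyte-like cells was at 23.2 and 32.9 CPM under ob/ob-Veh and 83.1 and 44.3 under ob/ob-Rosi (Rosi effect 1.28 ± 0.359, adjusted p = 0.0544), and passed among cells without macrophage UMIs (1.89, adjusted p = 0.00955).

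Other transcripts moved with these changes. In eWAT preadipocyte-like cells the 10 macrophage markers summed to 1749 and 1878 CPM under WT-Veh, 236 and 535 under ob/ob-Veh, and 2034 and 1660.2 under ob/ob-Rosi, with none at 0, and 10 of 10 were called lower under ob/ob-Veh. Of the lists that define the classes, 6 of 10 preadipocyte markers were lower and 4 of 10 progenitor markers higher. Among 10 genes of the response to tissue dissociation, 2 were higher (sums of 8988 and 10345, 14292 and 11860, and 7864 and 6068 CPM). RNA of adipocyte genes summed to 9.38 to 21.8 CPM under WT-Veh, 32.0 to 38.5 under ob/ob-Veh and 1.80 to 3.93 under ob/ob-Rosi. The part of these lists in the members' values was not tested. Of the ob/ob-Veh cells 70.4% lay in 1 cluster (13) of the class, while the other groups lay mainly in clusters 9 and 10. When cells with any macrophage UMI were left out, Igf1 kept an ob/ob effect of 2.75 (adjusted p = 0.00221) and a Rosi effect of −3.06 (0.00108), and Igfbp3 of 3.82 (0.00136) and −2.12 (0.0157). Irs1 then stood at 2.66 (0.0513) and −1.31 (0.331). What part the mixture of clusters had in the class values was not tested.

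The Igf1 values of eWAT macrophages are given class by class. Macrophage-like cells in clusters without enough markers of a subtype (other macrophage-like) held 291 and 340.4 CPM of Igf1 under WT-Veh, 57.9 and 143 under ob/ob-Veh, and 279 and 302 under ob/ob-Rosi. The ob/ob-Veh libraries lay below all others. The ob/ob effect was −1.77 ± 0.334 (adjusted p = 0.0028), and that of Rosi 1.64 ± 0.332 (0.00477), and both passed in each refit. PVM-like cells held 396 and 525, 539.98 and 522, and 408 and 436 CPM, with an ob/ob effect of 0.10 ± 0.240 (adjusted p = 0.825). LAM-like cells held 251 and 305 CPM under WT-Veh and 287 and 339.99 under ob/ob-Rosi, and could not be compared with ob/ob-Veh, where they were too few. No test of the difference between these classes was made.

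**Figure D4:**
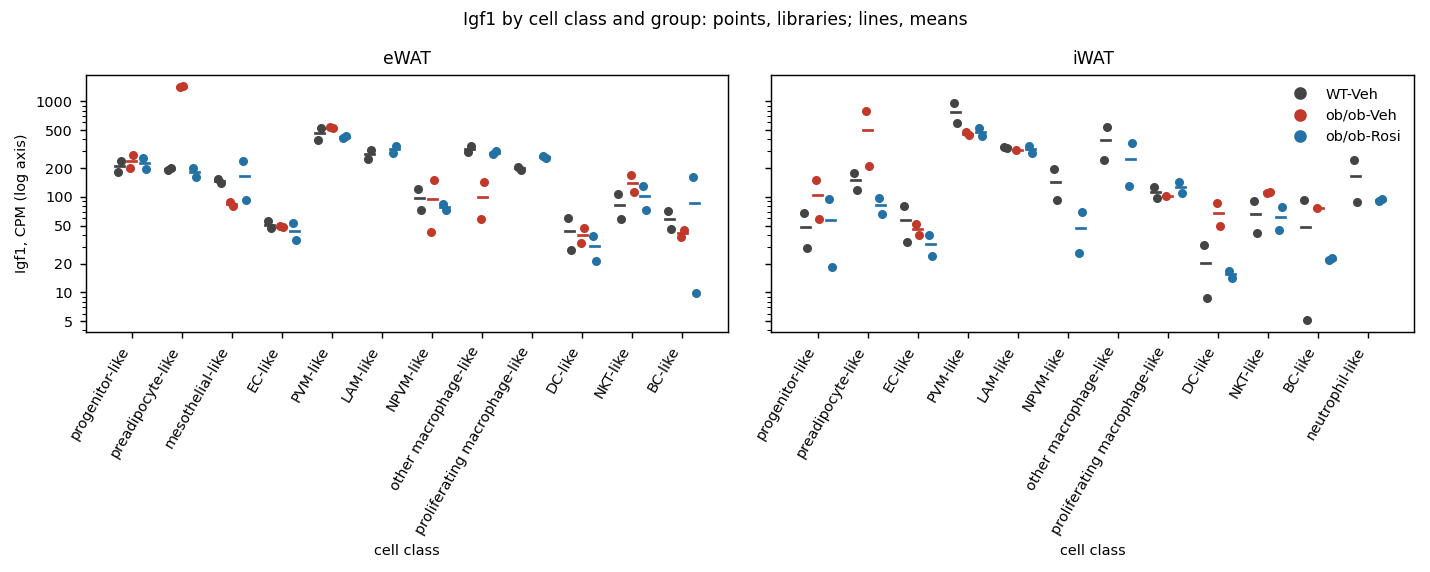
Igf1 in each cell class of eWAT (left) and iWAT (right), in CPM on a log axis, with a point for each library and a line for the group mean. In eWAT the ob/ob-Veh points lie above the others in preadipocyte-like cells and below them in other macrophage-like cells, and the 3 groups lie close together in progenitor-like cells.

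In the same other macrophage-like cells the receptors moved opposite to the ligand. Insr was at 17.4 and 18.1 CPM under WT-Veh, 49.3 and 57.4 under ob/ob-Veh, and 24.96 and 13.6 under ob/ob-Rosi, without overlap of ob/ob-Veh with the rest (ob/ob effect 1.49 ± 0.288, adjusted p = 0.00324, and Rosi effect −1.40 ± 0.285, adjusted p = 0.00506). Igf1r went from 19.95 and 26.8 to 38.8 and 78.9 and back to 22.2 and 24.9 CPM (1.21 ± 0.301, adjusted p = 0.0125, and −1.21 ± 0.299, adjusted p = 0.0138). Here the background was high, since 23.4% of all genes passed for the ob/ob effect and 21.7% for the Rosi effect. Both Igf1r calls were lost without ob/ob-Veh replicate 2 (0.164 and 0.188), the ob/ob effect also without WT-Veh replicate 1 (0.0997), and the Rosi effect without either ob/ob-Rosi library (0.056 and 0.0564). Irs2 fell with treatment, from 56.7 and 74.3 to 36.7 and 27.3 CPM (−0.95 ± 0.248, adjusted p = 0.0178), and lost the call without ob/ob-Rosi replicate 2 or either ob/ob-Veh library (0.108, 0.0639 and 0.121) and with thinning (0.161).

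Binding proteins were also called in other macrophage-like cells. Igfbp7 was lower under ob/ob-Veh (24.6 and 30.7 CPM) than under WT-Veh (146 and 58.0) or ob/ob-Rosi (52.8 and 80.7), by −2.00 ± 0.403 and 1.36 ± 0.398 (adjusted p = 0.00418 and 0.0296). Igfbp5 fell with treatment from 7.41 and 9.21 to 3.53 and 1.79 CPM (adjusted p = 0.0211). The call for the fall of Igfbp7 was lost without ob/ob-Veh replicate 1 (0.0601), and the Rosi calls of Igfbp5 and Igfbp7 without ob/ob-Rosi replicate 2 or either ob/ob-Veh library (0.0851 to 0.216), and with thinning (0.174) for Igfbp5 and removal of doublets (0.0503) for Igfbp7. Beside these values, 5 of 8 stromal markers were lower under ob/ob-Veh, summing to 1630 and 713, 564 and 947, and 1009 and 829 CPM. Of the macrophage markers 8 of 10 were lower (26135 and 29199, 14262 and 18383, and 26296 and 35622 CPM). Dissociation-response genes summed to 6569 to 8393 CPM under WT-Veh, 8906 to 11030 under ob/ob-Veh and 5597 to 7515 under ob/ob-Rosi. Of the ob/ob-Veh cells 88.1% lay in cluster 4, while the other groups lay mainly in clusters 1 and 3. The part of these in the members' values was not tested.

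PVM-like cells, the resident macrophages along vessels, held more of a receptor and a carrier under ob/ob-Veh. Igf1r was at 34.3 and 51.2 CPM under WT-Veh, 94.4 and 116 under ob/ob-Veh, and 58.5 and 54.8 under ob/ob-Rosi (ob/ob effect 1.19 ± 0.242, adjusted p = 0.0296, 3.54% of all genes called). Igfbp4 was at 376 and 367, 1035 and 745, and 338 and 398 CPM (1.16 ± 0.268, adjusted p = 0.045). In both genes ob/ob-Veh lay above the other groups. Each call was lost when any WT-Veh or ob/ob-Veh library was left out, with adjusted p of 0.0703 to 0.2 for Igf1r and 0.0674 to 0.295 for Igfbp4, which was also lost with removal of doublets (0.0508). Both passed among cells without a stromal UMI (1.25, adjusted p = 0.0427, and 1.29, adjusted p = 0.00683). Cluster 23 held 97.4% of the ob/ob-Veh cells, and cluster 0 nearly all others. RNA of 7 adipocyte genes summed to 7.27 and 9.14 CPM under WT-Veh, 78.3 and 85.6 under ob/ob-Veh, and 3.86 and 3.83 under ob/ob-Rosi in these cells, and 3 of 4 tested were higher under ob/ob-Veh. The dissociation-response genes summed to 13068 and 15997, 25253 and 19539, and 13524 and 13730 CPM (1 of 10 higher), and the macrophage markers to 30793 and 34609, 17526 and 22087, and 28009 and 39092 CPM (1 of 10 lower). The part of these lists was not tested.

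NKT-like cells of eWAT had 4 members higher under ob/ob-Veh, where 4.66% of all genes passed (4.11% for the Rosi effect). Irs2, their most abundant docking protein, was at 76.9 and 40.1 CPM under WT-Veh, 264 and 194 under ob/ob-Veh, and 46.2 and 66.8 under ob/ob-Rosi (1.84 ± 0.385, adjusted p = 0.0147, and −1.83 ± 0.389, adjusted p = 0.0184). Igf1r rose by 1.86 ± 0.383 (adjusted p = 0.0138), Insr by 1.59 ± 0.428 (0.0468) and Igfbp5 by 2.03 ± 0.499 (0.0315, with a Rosi effect of −2.53 ± 0.558, adjusted p = 0.0216). The 2 ob/ob-Veh libraries lay above the other 4 for each of these genes. None of these calls held when every library was left out in turn. Those of Irs2 needed ob/ob-Veh replicate 1 (0.181 and 0.203), with WT-Veh replicate 2 (0.2) or ob/ob-Rosi replicate 2 (0.0921), that of Igf1r needed WT-Veh replicate 2 and ob/ob-Veh replicate 2 (0.161 and 0.131), that of Insr each WT-Veh and ob/ob-Veh library (0.134 to 0.244), and those of Igfbp5 ob/ob-Veh replicate 1 with both WT-Veh libraries or ob/ob-Rosi replicate 2 (0.0782 to 0.507). At a finer clustering (resolution 2) the calls of Irs2 (0.279 and 0.194), Insr (0.128) and Igfbp5 (0.136 and 0.0855) were lost. Those of Igfbp5 were lost with thinning too (0.0799 and 0.0824), its Rosi call with DESeq2 (0.0727), and that call and the Insr call with removal of doublets (0.0656 and 0.0943). Dissociation-response genes moved with these members, with 3 of 10 higher under ob/ob-Veh, 2 of 10 lower with treatment and sums of 3937 and 3096, 9084 and 7286, and 4014 and 4101 CPM. Macrophage markers moved the other way, with 6 of 10 lower under ob/ob-Veh, 9 of 10 higher with treatment and sums of 8242 and 5657, 3165 and 3231, and 10798 and 8874 CPM. Stromal markers summed to 3089 and 1408, 3532 and 3677, and 3334 and 2302 CPM with none of 8 called, and RNA of adipocyte genes to 6.15 and 6.21, 19.4 and 23.4, and 0 and 7.23 CPM, both highest under ob/ob-Veh, and the 2 mesothelial markers tested were called higher there. The part of these lists was not tested.

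The remaining eWAT calls fell in 4 classes. In EC-like cells Igfbp3 was at 58.5 and 26.6 CPM under WT-Veh, 136 and 158 under ob/ob-Veh, and 135 and 62.0 under ob/ob-Rosi (ob/ob effect 1.83 ± 0.413, adjusted p = 0.0231, 4.22% of all genes called), and the call was lost without ob/ob-Veh replicate 2 (0.0888) or WT-Veh replicate 2 (0.217) and at resolution 2 (0.0734). There treatment lowered Igfbp5 from 94.5 and 77.5 to 17.8 and 25.03 CPM (−1.89 ± 0.314, adjusted p = 0.00366, 2.8% of all genes called), lost with thinning (0.101). It raised Igfbp7 from 783 and 932 to 1512 and 2744 CPM (1.37 ± 0.320, adjusted p = 0.0313), not without ob/ob-Rosi replicate 2 or either ob/ob-Veh library (0.13 to 0.219) or at resolution 2 (0.0683). Of the 719 ob/ob-Veh EC-like cells, 160 and 402 lay in a subcluster that held 0 and 1 cells of WT-Veh and 6 and 4 of ob/ob-Rosi. RNA of 7 adipocyte genes summed to 2113 and 1497 CPM in the ob/ob-Veh EC-like cells and to 25 to 56.0 CPM in the other groups, and 10 of 10 macrophage markers were lower there. Their part in the EC-like values was not tested.

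Mesothelial-like cells held 7.70 and 3.92 CPM of Igfbp3 under WT-Veh, 30.9 and 31.2 under ob/ob-Veh, and 6.32 and 2.38 under ob/ob-Rosi (ob/ob effect 2.32 ± 0.511, adjusted p = 0.0354, 3.75% of all genes called). These cells numbered 162 and 69, 595 and 492, and 99 and 51. The WT-Veh and ob/ob-Rosi values therefore rest on few UMIs, and the size of the effect is uncertain. Non-perivascular macrophage-like (NPVM-like) cells held 205 and 104, 32.5 and 44.6, and 83.9 and 95.8 CPM of Igfbp7 (−2.21 ± 0.428, adjusted p = 0.0159, 0.78% called). In DC-like cells Irs2 fell with treatment from 88.6 and 68.2 to 24.9 and 20.4 CPM (−1.70 ± 0.327, adjusted p = 0.0205, 1.23% called). These 3 calls had ob/ob-Veh values outside the range of the group compared. The mesothelial-like call was lost without any WT-Veh or ob/ob-Veh library (0.136 to 0.315), that of NPVM-like cells without WT-Veh or ob/ob-Veh replicate 1 (0.265 and 0.235), and that of DC-like cells without ob/ob-Rosi replicate 2 or ob/ob-Veh replicate 1 (0.153 and 0.194). The mesothelial-like call was lost with DESeq2 (0.0815) and removal of doublets (0.0737) as well, and that of NPVM-like cells with thinning (0.344). In the DC-like cells 2 of 10 dissociation-response genes fell with treatment, from sums of 8822 and 7465 to 3594 and 4255 CPM, and 4 of 10 macrophage markers rose, from 2300 and 3405 to 7640 and 6277 CPM. The part of either was not tested.

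In iWAT 7 of 57 tests over 6 classes passed for the ob/ob effect, all higher, against 1.46% of all gene tests, and 7 of 57 for the Rosi effect, 1 higher and 6 lower, against 2.72%. The number for the ob/ob effect depended on single libraries. It was 24 without WT-Veh replicate 1, the library that stood apart, 15 without WT-Veh replicate 2, and 1 without either ob/ob-Veh library. For the Rosi effect it was 25 without either WT-Veh library, 2 and 1 without ob/ob-Rosi replicates 1 and 2, and 0 without either ob/ob-Veh library.

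The iWAT APCs had 1 called member, Irs1. Most APCs of WT-Veh replicate 1 lay in the clusters led by lymphocyte genes described above, so values are also given without those clusters and without that library, and the part of other cells' RNA in them was not tested. In progenitor-like cells it was at 11.8 and 13.7 CPM under WT-Veh, 35.8 and 45.8 under ob/ob-Veh, and 13.3 and 9.53 under ob/ob-Rosi, so that ob/ob-Veh lay above both other groups. Dissociation-response genes summed highest under ob/ob-Veh in these cells too, at 10265 and 13632, 17297 and 15184, and 9927 and 10310 CPM, as did stromal markers, at 21058 and 27660, 37956 and 33409, and 28091 and 24227 CPM. No gene of either list was called, and their part was not tested. The Rosi effect was −1.72 ± 0.279 (adjusted p = 0.0443, 0.674% of all genes called) and the ob/ob effect 1.52 ± 0.292 (adjusted p = 0.109, 0.238% called). Over all refits the Rosi effect lay at −1.93 to −1.56. The Rosi call was lost without any ob/ob library (0.149 to 0.455), with thinning (0.0505) and among cells without macrophage UMIs (0.0787). It held without WT-Veh replicate 1 (−1.73, adjusted p = 0.00319), where the ob/ob effect passed too (1.42, adjusted p = 0.0376), and without the 8 clusters (−1.75, adjusted p = 0.0232). In preadipocyte-like cells Irs1 was at 17.0 and 24.7, 72.5 and 64.6, and 26.3 and 20.03 CPM, an arrangement without overlap that did not pass (adjusted p = 0.1 and 0.101) but did so without WT-Veh replicate 1 (0.0366 and 0.0113). Of the progenitor-like cells 96.3% under ob/ob-Veh lay in cluster 12, and 86.3% under WT-Veh and 95.6% under ob/ob-Rosi in cluster 11, while cluster 9 held most preadipocyte-like cells of each group (61.5% to 95.5%). What part the clusters had in the class values was not tested. Without WT-Veh replicate 1 other members passed as well. In preadipocyte-like cells Igfbp7 was at 725 and 2029 CPM under WT-Veh, 578 and 635 under ob/ob-Veh, and 1459 and 1711 under ob/ob-Rosi, and without that library both effects passed (−1.80, adjusted p = 0.0136, and 1.46, adjusted p = 0.014). Igfbp3 was at 316 and 1218, 159.5 and 403, and 536 and 421 CPM there (ob/ob effect without the library −2.18). Irs2 in progenitor-like cells was at 146 and 223, 71.1 and 95.3, and 79.7 and 146 CPM (−1.58). These 3 ob/ob effects were lower under ob/ob-Veh, unlike the 7 calls made with all libraries, and each rests on 1 WT-Veh library. Without the 8 clusters Igfbp3 was at 442 and 160 CPM under WT-Veh and 159.5 and 403 under ob/ob-Veh, which overlapped. Igfbp7 (989 and 1793 against 578 and 635 CPM) and Irs2 (161 and 223 against 75.0 and 95.3 CPM) then did not overlap. The ob/ob-Veh libraries held the highest Irs1 of the 3 groups in iWAT preadipocyte-like and progenitor-like cells and in eWAT preadipocyte-like cells.

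Igf1 in iWAT preadipocyte-like cells was at 179 and 119 CPM under WT-Veh, 796 and 208 under ob/ob-Veh, and 96.6 and 65.9 under ob/ob-Rosi. Its ob/ob effect of 1.75 ± 0.617 and Rosi effect of −2.58 ± 0.633 did not pass (adjusted p = 0.198 and 0.119), and the 2 ob/ob-Veh libraries were far apart. Without WT-Veh replicate 1 the Rosi effect passed (−2.56, adjusted p = 0.0186) and the ob/ob effect did not (2.04, adjusted p = 0.0897). In progenitor-like cells Igf1 was at 67.1 and 29.2, 149 and 58.8, and 95.8 and 18.6 CPM, with a Rosi effect of −0.81 (adjusted p = 0.588). Without the 8 clusters it was −2.29 (adjusted p = 0.0374), with ob/ob-Rosi replicate 1 at 21.1 CPM once its 89 cells of the cluster with Wt1 were left out. That cluster was led by Sult1e1, Tcf21 and Wt1, with 10 of 10 progenitor markers and 1 mesothelial marker past their limits. Where its cells came from was not tested. Few genes of any kind passed in iWAT preadipocyte-like cells (0.00854% for the ob/ob effect and 0% for the Rosi effect). In iWAT PVM-like cells Igf1 was at 967 and 591, 476 and 438, and 525 and 429 CPM, with no call (adjusted p = 0.112 and 0.613).

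Igfbp5 and Igfbp6 behaved differently in the 2 APC classes of iWAT. Igfbp5 in preadipocyte-like cells was at 372 and 286 CPM under WT-Veh, 1536 and 1611 under ob/ob-Veh, and 1454 and 729.9 under ob/ob-Rosi (ob/ob effect 2.23 ± 0.414, adjusted p = 0.1). In progenitor-like cells it was at 4865 and 3341, 4607 and 5062, and 9372 and 6414 CPM. WT-Veh was thus lowest in preadipocyte-like cells, while ob/ob-Rosi was highest in progenitor-like cells. Igfbp6 was at 362 and 1147, 1543 and 1146, and 706 and 1469 CPM in preadipocyte-like cells and at 1815 and 5492, 2689 and 2213, and 3115 and 5911 CPM in progenitor-like cells. The WT-Veh libraries overlapped both other groups in each class, while in progenitor-like cells both ob/ob-Veh libraries lay below ob/ob-Rosi. The difference of the ob/ob effects, preadipocyte-like minus progenitor-like, was 2.08 ± 0.292 for Igfbp5 (adjusted p = 0.00765) and 1.48 ± 0.254 for Igfbp6 (0.0186), against 0.774% of all genes called. For the Rosi effects it was −1.39 ± 0.290 (0.0335) and −1.29 ± 0.253 (0.0245), against 1.37%. These tests were also chosen after the values were seen. All 4 calls held without WT-Veh replicate 1 (0.0197 and 0.0453 for the ob/ob effects, 0.0358 and 0.0269 for the Rosi effects). Without the 8 clusters both ob/ob calls held (2.14 and 1.97, adjusted p = 0.00305 and 0.00697), both Rosi calls were lost (0.0614 and 0.0835), and Igfbp7 was called for both effects (−1.32 and 1.41, adjusted p = 0.045 and 0.0432, against 0.27 and 0.252 with them). Within preadipocyte-like cells the ob/ob effect of Igfbp5 passed without WT-Veh replicate 1 (2.41, adjusted p = 0.0218). For the ob/ob effects the Igfbp5 call was lost on leaving out ob/ob-Veh replicate 1 (0.0514) or WT-Veh replicate 2 (0.0695), and the Igfbp6 call on leaving out either ob/ob-Veh library or WT-Veh replicate 2 (0.0815 to 0.16). For the Rosi effects the Igfbp5 call was lost without ob/ob-Rosi replicate 2 or either ob/ob-Veh library (0.135 to 0.272), and the Igfbp6 call without any ob/ob library (0.0885 to 0.196). With thinning and among cells without macrophage UMIs the Rosi calls of both genes (0.0812 to 0.501) and the ob/ob call of Igfbp6 (0.103 and 0.237) were lost. The progenitor-like cells compared lay in different clusters by group, as given for Irs1. No stromal marker was called in these cells, but the median ob/ob effect of the 8 stromal markers was 1.097 in preadipocyte-like and 0.68 in progenitor-like cells. Their part was not tested.

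All 7 iWAT calls for the ob/ob effect fell in leukocyte classes, 6 of them in binding proteins (plot of iWAT leukocyte classes). In PVM-like cells Igfbp5 was at 23.0 and 14.6 CPM under WT-Veh, 272 and 257 under ob/ob-Veh, and 68.8 and 54.9 under ob/ob-Rosi (3.63 ± 0.308, adjusted p = 0.00194, and −1.89 ± 0.282, adjusted p = 0.0188). Igfbp6 was at 18.6 and 43.4, 317 and 221, and 54.1 and 105 CPM (2.88 ± 0.509, adjusted p = 0.0223). In both genes the ob/ob-Veh libraries stood above all others. In this class 5.27% of all genes passed for the ob/ob effect and 8.12% for the Rosi effect.

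In NKT-like cells Igfbp5 rose by 3.84 ± 0.595 (adjusted p = 0.0167, 1.12% of all genes called), from 49.9 and 18.8 to 700.3 and 541 CPM, and stood at 145 and 64.5 under ob/ob-Rosi. Igfbp6 rose there by 2.63 ± 0.445 (adjusted p = 0.0241). NKT-like cells numbered 3036 and 1150 under WT-Veh, 141 and 212 under ob/ob-Veh, and 440 and 829 under ob/ob-Rosi. Cluster 3, with Cd3e and Cd28 among its leading genes, held 2861 and 60, 60 and 152, and 152 and 69 of them. Cluster 5, with Gzma and Ncr1, held 119 and 974, 75 and 58, and 270 and 639. The 2 lean libraries thus differed in make-up, and the part of this in the NKT-like values was not tested. In DC-like cells Igfbp5 was at 15.8 and 13.04 CPM under WT-Veh, 257 and 218 under ob/ob-Veh, and 52.1 and 46.5 under ob/ob-Rosi (3.52 ± 0.473, adjusted p = 0.00619, 0.661% of all genes called, and −1.62 ± 0.411, adjusted p = 0.0327). Igfbp4 in these cells was at 31.5 and 26.1, 308 and 258, and 25.2 and 27.3 CPM (2.79 ± 0.442, adjusted p = 0.0114, and −2.77 ± 0.427, adjusted p = 0.0214). DC-like cells numbered 107 and 281 under WT-Veh, 63 and 52 under ob/ob-Veh, and 216 and 380 under ob/ob-Rosi. Cluster 15 held nearly all of them, and 1065 other ob/ob-Veh cells of that cluster got no name. The part of the cells left out in the DC-like values was not tested. The 3 groups did not overlap for Igfbp5 in either class, with ob/ob-Rosi between the others. Dissociation-response genes were highest under ob/ob-Veh as well, with sums of 4068 and 4845, 10891 and 8453, and 3718 and 5090 CPM in NKT-like cells (0 of 10 called) and of 3968 and 4563, 9874 and 8353, and 4291 and 4495 CPM in DC-like cells (1 of 10 higher under ob/ob-Veh and 2 of 10 lower with treatment). Their part was not tested.

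The markers of stromal cells moved with these carriers. The sum of 8 stromal markers was 404 and 337 CPM under WT-Veh, 3839.5 and 3331 under ob/ob-Veh, and 1336 and 1081 under ob/ob-Rosi in PVM-like cells. It was 931 and 417, 7292 and 6876, and 2809.6 and 1464 CPM in NKT-like cells, and 413 and 278, 3996 and 3329.5, and 996 and 1025 CPM in DC-like cells. No marker was at 0, and 8 of 8, 5 of 8 and 5 of 8 were called higher under ob/ob-Veh in the 3 classes. Among PVM-like cells without a UMI of 5 stromal genes, a subset of the class, the ob/ob effect of Igfbp5 was 3.72 (adjusted p = 0.000728) and that of Igfbp6 2.52 (0.0443). Igfbp5 also kept its Rosi effect there (−2.04, adjusted p = 0.0482). The same sum in iWAT EC-like cells was 656.6 to 1643 CPM under WT-Veh, 3022 to 3946 under ob/ob-Veh and 1301 to 1986 under ob/ob-Rosi. Free RNA of stromal cells, which droplets of other cells can take up, was not measured here, and its part in the carrier values of these classes was not tested. Cluster 20 held 98.8% of the ob/ob-Veh PVM-like cells, and clusters 22 and 13 those of the other groups.

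**Figure D5:**
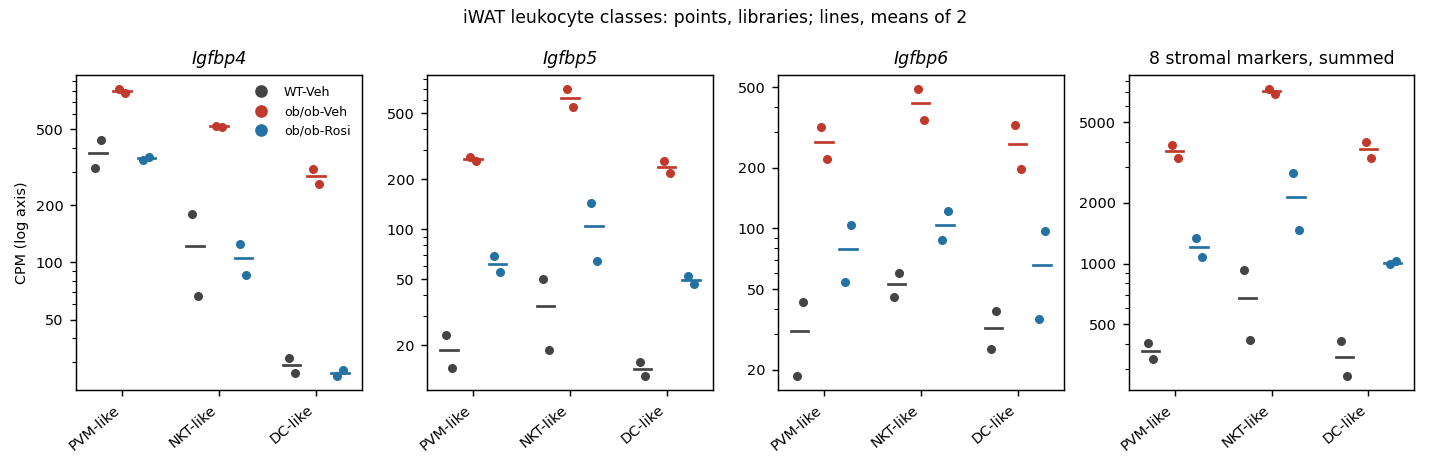
Igfbp4, Igfbp5, Igfbp6 and the sum of 8 stromal markers in PVM-like, NKT-like and DC-like cells of iWAT, in CPM on a log axis, with a point for each library and a line for the mean of 2. For Igfbp5 and the stromal markers the ob/ob-Veh points lie at the top, the ob/ob-Rosi points between and the WT-Veh points at the bottom in each class.

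Leaving out a library ended most of these calls. In PVM-like cells the Igfbp5 ob/ob effect held in each such refit, its Rosi effect was lost without ob/ob-Rosi replicate 2 or either ob/ob-Veh library (0.104 to 0.215), and the Igfbp6 call without either ob/ob-Veh library (0.199 and 0.0885). In NKT-like and DC-like cells each ob/ob call was lost without either ob/ob-Veh library (0.0554 to 0.332). The DC-like Rosi calls were lost without either ob/ob-Veh library (0.161 to 0.287), that of Igfbp5 also without either ob/ob-Rosi library (0.137 and 0.247) and without the filter on low counts (0.0587). The DC-like ob/ob call of Igfbp4 was lost with thinning (0.0563).

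The other iWAT leukocyte calls were of the receptors, Irs1 and Igfbp7. Igf1r in PVM-like cells was at 66.3 and 58.9 CPM under WT-Veh, 122 and 126 under ob/ob-Veh, and 59.3 and 51.9 under ob/ob-Rosi, so that ob/ob-Veh lay above the other groups (Rosi effect −0.95 ± 0.225, adjusted p = 0.0429). Insr fell with treatment in DC-like cells, from 94.1 and 99.1 to 14.99 and 11.8 CPM (−2.20 ± 0.592, adjusted p = 0.0386, 8.98% of all genes called), where 2 of 10 dissociation-response genes were lower with treatment too. The ob/ob-Veh values of Insr rest on 63 and 52 cells at median depths of 1660 and 1644.5 UMIs, and so on few UMIs. Igfbp7 rose with treatment in PVM-like cells, from 34.2 and 34.2 to 57.7 and 51.6 CPM (0.89 ± 0.222, adjusted p = 0.0492). The Irs1 call in PVM-like cells (adjusted p = 0.0363) rested on 1 and 3 UMIs under WT-Veh, 17 and 19 under ob/ob-Veh, and 8 and 5 under ob/ob-Rosi, and no fold is given. Without any 1 ob/ob library the 3 Rosi calls had adjusted p of 0.0507 to 0.288, and the Irs1 call was lost without any library but WT-Veh replicate 1 (0.0691 to 0.242). Among cells without stromal UMIs the Rosi calls of Igf1r and Igfbp7 in PVM-like cells were lost too (0.459 and 0.734). Over all refits the log2 Rosi effect there lay at −1.16 to −0.88 for Igf1r and at 0.65 to 0.94 for Igfbp7. The Igfbp7 call was also lost with thinning (0.105), library-total scaling (0.0924), removal of doublets (0.0533) and resolution 2 (0.0588), so that it held in 6 of 15 refits, and the Insr call was lost with thinning (0.115).

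The treated obese mice were also set against the lean mice. None of 100 eWAT tests and none of 104 iWAT tests of the members passed (edgeR), against 0.0481% and 0.0396% of all gene tests. At an unadjusted p below 0.05 there were 9 in eWAT and 29 in iWAT, and DESeq2 called 0 and 6. With a replicate block edgeR called 1 in eWAT and 6 in iWAT, though no label says that replicate numbers pair the libraries. In iWAT the deviations of same-numbered libraries of these 2 groups correlated with a median of 0.563. With edgeR the iWAT number was 7 and 13 without WT-Veh replicates 1 and 2, and 2 and 1 without ob/ob-Rosi replicates 1 and 2, and the eWAT number was 1 without either ob/ob-Rosi library. A level not called different is not shown to be equal. In eWAT preadipocyte-like cells Igf1 was at 191 and 202 CPM in lean and 202 and 159.7 in treated obese mice, and in iWAT preadipocyte-like cells Igfbp5 was at 372 and 286 against 1454 and 729.9.

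The depots were compared class by class, averaged over the 3 groups. The study states that all samples shared a batch and a sequencing run, while the SVF of each depot was extracted separately. The same limits on UMIs per cell were applied to both here. No label says whether eWAT and iWAT libraries came from the same mice. They were fitted as independent, without a block in the main fit. Of 59 tests over 6 classes 17 passed, 13 higher and 4 lower in iWAT, against 4.67% of all gene tests. Igfbp5 was higher in iWAT in 6 of 6 classes, by 4.51 ± 0.266 in preadipocyte-like cells (adjusted p = 3.05e-06), 3.86 ± 0.340 in progenitor-like cells (9.9e-06), 3.84 ± 0.245 in PVM-like, 3.64 ± 0.353 in NKT-like, 2.91 ± 0.286 in DC-like and 1.56 ± 0.224 in EC-like cells. No iWAT library overlapped an eWAT library in either APC class. All of these calls held whichever library was left out. Stromal markers summed to 596.6 to 3677 CPM over the eWAT libraries of PVM-like, NKT-like and DC-like cells and to 278.3 to 7292 CPM in iWAT, and the part of free stromal RNA in the Igfbp5 values of these 3 classes was not tested.

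Igfbp3 was higher in iWAT too, by 3.96 ± 0.395 in preadipocyte-like cells (adjusted p = 9.52e-05), where no library overlapped, by 1.75 ± 0.405 in progenitor-like cells (0.0108, 0.0611 without eWAT WT-Veh replicate 2), by 3.30 ± 0.431 in PVM-like cells (0.00406) and by 2.64 ± 0.538 in NKT-like cells (0.0432, 0.0603 to 0.179 without any 1 of 8 libraries, all but eWAT ob/ob-Rosi replicate 1, eWAT ob/ob-Veh replicate 2 and both iWAT WT-Veh libraries). Igfbp7 was the carrier with the opposite slope, by −3.23 ± 0.240 in progenitor-like cells (adjusted p = 3.06e-06), again without overlap, by −0.99 ± 0.270 in preadipocyte-like cells (0.0447) and by −1.47 ± 0.297 in DC-like cells (0.0203). Igf1 was lower in iWAT progenitor-like cells by −1.67 ± 0.368 (adjusted p = 0.00818), where every eWAT library lay above every iWAT library. Irs1 was higher in iWAT preadipocyte-like cells (1.26 ± 0.204, adjusted p = 0.00272), and Igf1r (0.80 ± 0.189, 0.0123) and Irs2 (0.80 ± 0.219, 0.0285) in progenitor-like cells. The Igfbp7 call in preadipocyte-like cells was lost without any 1 of 8 libraries (0.0768 to 0.117, all but eWAT WT-Veh replicate 2, eWAT ob/ob-Rosi replicate 1 and both iWAT WT-Veh libraries), and that in DC-like cells without eWAT WT-Veh replicate 1, ob/ob-Veh replicate 1 of either depot or iWAT ob/ob-Veh replicate 2 (0.0527 to 0.124). The Irs2 call was lost without any 1 of 8 libraries (0.0611 to 0.0913, all but eWAT ob/ob-Rosi replicate 1 and replicate 1 of each iWAT group) and that of Igf1r without iWAT ob/ob-Veh replicate 2 (0.0531). Thinning ended the calls of Igfbp3 in NKT-like cells (0.0713), of Igfbp7 in preadipocyte-like and DC-like cells (0.0898 and 0.0986) and of Irs2 (0.119), library-total scaling those of Igfbp7 in DC-like cells (0.0748), Igf1r (0.0521) and Irs2 (0.0577), and removal of doublets those of Igfbp3 in NKT-like (0.0524) and Igfbp7 in DC-like cells (0.0578). Without the 8 APC clusters, 3 more members passed in preadipocyte-like cells, Igf1 (−1.10, adjusted p = 0.0353), Igfbp4 (−0.80, 0.0232) and Insr (0.73, 0.0488), and without iWAT WT-Veh replicate 1 Igf1 did (−1.13, 0.0416), as did Igfbp4 and Igfbp6 in progenitor-like cells (0.83, 0.0108, and 0.90, 0.017).

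Whether the ob/ob effect or the Rosi effect itself differed between depots was tested in the same 59 tests. None passed for either (edgeR), against 0.222% and 0.213% of all gene tests. At an unadjusted p below 0.05 there were 17 and 11, and DESeq2 called 5 and 2. With 1 library left out edgeR called up to 2 for the ob/ob effect (2 without eWAT WT-Veh replicate 2 or iWAT WT-Veh replicate 1, 1 without iWAT WT-Veh replicate 2) and 1 for the Rosi effect (without eWAT ob/ob-Rosi replicate 2 or either iWAT WT-Veh library). A change called in eWAT and not in iWAT is therefore not shown to differ between them, the Igf1 change in preadipocyte-like cells included. The 2 ob/ob calls made without iWAT WT-Veh replicate 1 were those of Igfbp4 in DC-like cells and of Igfbp3 in preadipocyte-like cells. The Igfbp3 ob/ob effect was 2.45 in eWAT and −2.18 in iWAT without that library, with a depot difference of −4.64 (adjusted p = 0.0207, 0.161 with all libraries and 0.296 without the 8 APC clusters), and DESeq2 called it with all libraries.

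The rest of the pathway was followed through 85 other genes of insulin and IGF signalling in the 2 APC classes. In eWAT preadipocyte-like cells 8 of 73 tested genes passed for the ob/ob effect (3 higher, 5 lower, 11% against 7.3% of all genes) and 8 of 73 for the Rosi effect (3 higher, 5 lower, against 7.26%). In progenitor-like cells 3 of 64 (all higher, 4.69% against 1.96%) and 4 of 64 (1 higher, 3 lower, 6.25% against 2.31%) passed. None of 70 passed in either iWAT class for either effect (edgeR), where 14 and 13 had an unadjusted p below 0.05 in preadipocyte-like and 8 and 13 in progenitor-like cells, and DESeq2 called 3 and 5, and 4 and 3. These numbers depended on single settings and libraries. The 23 eWAT calls became 5 with thinning, 3 among cells without macrophage UMIs, 10 and 14 without WT-Veh replicates 1 and 2, 14 and 18 without ob/ob-Veh replicates 1 and 2, and 29 and 17 without ob/ob-Rosi replicates 1 and 2. In iWAT, over the 2 effects and the treated obese against the lean mice, calls numbered 28 and 27 without WT-Veh replicates 1 and 2, 1 without the 8 APC clusters, and 0 without any 1 ob/ob library.

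The feedback inhibitors Socs1 and Socs3, which block signalling from cytokine and insulin receptors, were among those named by the rule. Socs3 in eWAT progenitor-like cells was at 144 and 222 CPM under WT-Veh, 657 and 522 under ob/ob-Veh, and 60.9 and 63.6 under ob/ob-Rosi (1.66 ± 0.333, adjusted p = 0.028, and −3.22 ± 0.361, adjusted p = 0.00118). Socs1 was at 18.7 and 21.9, 86.1 and 86.3, and 8.96 and 5.53 CPM (2.03 ± 0.308, adjusted p = 0.00669, and −3.48 ± 0.363, adjusted p = 0.000845). Both genes had their highest values in the ob/ob-Veh libraries and their lowest in ob/ob-Rosi. Socs3 in preadipocyte-like cells was at 298 and 301, 989.7 and 696, and 179 and 168 CPM (1.43 ± 0.311, adjusted p = 0.0176, and −2.21 ± 0.319, adjusted p = 0.00174), and Socs1 fell there with treatment from 99.5 and 91.4 to 20.7 and 22.7 CPM (adjusted p = 0.125 among cells without macrophage UMIs). The ob/ob calls of Socs3 were lost without either WT-Veh library or ob/ob-Veh replicate 1 in both classes (0.0999 to 0.337) and with thinning (0.111 and 0.0734, and in preadipocyte-like cells also without macrophage UMIs, 0.0624), and that of Socs1 without WT-Veh replicate 2 (0.125) and with thinning (0.146). Dissociation-response genes moved in the same direction in these classes, with 2 and 1 of 10 higher under ob/ob-Veh and 4 and 4 of 10 lower with treatment. Their part was not tested.

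The other genes named were Tbc1d4, Trib2, Enpp1, Shc4 and Eif4ebp1. Tbc1d4, the AKT substrate that holds back glucose transporters, was at 10.9 and 23.5 CPM under WT-Veh, 72.8 and 81.2 under ob/ob-Veh, and 26.8 and 13.9 under ob/ob-Rosi in eWAT preadipocyte-like cells (ob/ob effect 2.08 ± 0.381, adjusted p = 0.00699, 0.0645 without WT-Veh replicate 1). Trib2, a pseudokinase that restrains AKT, was at 15.3 and 6.68, 1.38 and 2.72, and 11.4 and 12.3 CPM (−2.52 ± 0.496, adjusted p = 0.01, and 2.63 ± 0.481, adjusted p = 0.00684). Enpp1, an inhibitor of the insulin receptor, rose with treatment from 4.15 and 5.52 to 15.7 and 19.0 CPM (1.94 ± 0.347, adjusted p = 0.00605). Shc4 fell under ob/ob-Veh to 0.732 and 0.614 CPM from 11.6 and 2.37 (adjusted p = 0.0209). In progenitor-like cells Eif4ebp1, a translation repressor downstream of mTOR, rose with treatment from 49.0 and 59.96 to 97.6 and 263 CPM (1.76 ± 0.411, adjusted p = 0.0496). A lack of overlap between the groups compared was a condition for naming a pathway gene. The Trib2 ob/ob call was lost without ob/ob-Veh replicate 1 (0.0508) or WT-Veh replicate 1 (0.101), the Rosi calls of Trib2 and Enpp1 without ob/ob-Rosi replicate 2 (0.0725 and 0.0541), the Shc4 call without WT-Veh replicate 1 (0.329), and that of Eif4ebp1 without any 1 library but ob/ob-Rosi replicate 1 (0.0733 to 0.274). Thinning ended the calls of Trib2, Enpp1 and Eif4ebp1 (0.104 to 0.153).

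For each member the genes with the most similar pattern over 26 means of a class and depot were found among 14358 genes, by Pearson's r of log2 CPM. The points share libraries and depth, so r is a description. Irs1 was most like Hoxc9 (r = 0.957), Pcolce and C1s1, and Igfbp6 most like Vgll3 (0.967), C3 and Ogn. Igf1r was most like Ctdsp1 (0.936), Tmem127 and Zfp788, and Igfbp7 most like Cyp2d22 (0.94), Hoxa5 and St5. The nearest genes of the other carriers were Tgfbr3, Plpp3 and Cyr61 for Igfbp3 (0.91 to 0.90), Smo, Kank2 and Mill2 for Igfbp4 (0.92 to 0.911), and Edn1, Ackr3 and Nhsl1 for Igfbp5 (0.884 to 0.87). Igf1 was most like Selenbp1 (0.877), Mt1 and Glb1. Insr (Zfp652, 0.816, Fam160b1 and Sppl2a) and Irs2 (Tprkb, 0.755, Zfp141 and Qtrt1) had the least similar neighbours of the 10.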

How the data were processed

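Per the labels, 10x Genomics single-cell libraries of the SVF were made from 12 samples called biological replicates, 2 per group and depot. According to the submitters' processing notes, reads were handled with bcl2fastq 2.19.1.403 and Cell Ranger 3.0.2 on mm10. The authors deposited raw UMI counts per gene and barcode, without normalization or pooling. No deposited iWAT barcode exceeded 22000 UMIs, while eWAT barcodes did. Removal of doublets or free RNA is not given in the sources used here. Of 139755 barcodes, 126095 had 700 to 22000 UMIs, 200 to 6000 genes and under 25% mitochondrial UMIs.

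Cells were clustered per depot (2000 variable genes, 25 components, 20 neighbours, Leiden resolution 1, scanpy 1.11.5). APC-like cells were clustered again within each library (15 components, resolution 0.6). Outside the APC kinds, a cluster was named from at least 3 markers found in 20% of its cells. Progenitor-like and preadipocyte-like clusters were told apart by another rule. The sign of the difference between a cluster's scores for the progenitor and preadipocyte lists set its kind. Clusters near the middle of both lists or with under 3 markers got neither kind. The border between the kinds was thus set library by library and need not be the same in each. Members and gene lists were chosen with earlier results of these data known, and parts of the rule for naming clusters were changed once clusters had been seen. Doublets were kept.

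Sums of UMIs over each class of a library (at least 20 cells) were tested with edgeR 4.0.16 in R 4.3.3 (TMM, filterByExpr, quasi-likelihood, no block), with Benjamini-Hochberg adjustment over all genes of a class. The 3 groups of a depot shared a fit. Classes within a library were compared with the library as a block, and effects between depots by a depot-by-group interaction. The genes named are all 10 members, per APC class and comparison at most 2 called pathway genes in each direction without overlap, the 3 genes most like each member, and Lep and Adipoq. Alternatives were DESeq2 1.42.0, library-total scaling, no filter on low counts, TMM computed without mitochondrial and ribosomal protein genes, thinning to 700 UMIs, removal of Scrublet doublets, resolution 2, cells without macrophage or stromal UMIs, APC classes without clusters led by markers of another class, a replicate block and each library left out. The tests were tested on simulated data.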

Additional observations from a re-analysis of the deposited data

How the results depend on the processing

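Of 75 called tests, none changed direction under any alternative run, and the all-gene median moved by up to −0.70 on the log2 scale with library-total scaling in iWAT. Without the filter on low counts the eWAT calls were 30 (ob/ob effect), 29 (Rosi effect) and 1 (Rosi against lean), the iWAT calls 25, 18 and 9, those of iWAT against eWAT 29, of the depot differences 10 and 7, and of the pathway list 46 in eWAT and 43 in iWAT in place of 23 and 0. DESeq2 gave 21 (ob/ob), 19 (Rosi) and 6 (Rosi against lean) in iWAT, 5 and 2 for the depot differences and 15 for the pathway list in iWAT. Library-total scaling gave 11 and 11 in iWAT, and resolution 2 gave 14 and 12, with 2 for the iWAT pathway list. Thinning gave 1 for the depot difference of the ob/ob effect and 5 for the eWAT pathway list, and removal of doublets 1 for that of the Rosi effect. Without cells holding macrophage UMIs the pathway list had 3 calls in each depot and the iWAT Rosi effect in APCs 0. Without cells holding stromal UMIs the macrophage-like classes had 4 and 1 calls in eWAT and 1 for the Rosi effect in iWAT, where fewer classes could be tested. Leaving out the 8 APC clusters described above was an alternative added after the values were seen. The iWAT Rosi effect in APCs then had 2 calls in place of 1 and the iWAT pathway list 1. The cause of the other shifts was not tested. In eWAT too few progenitor-like cells without macrophage UMIs remained for that test.

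With a library left out, calls ranged from 9 to 22 (ob/ob), 4 to 23 (Rosi) and 0 to 1 (Rosi against lean) in eWAT, 1 to 24, 0 to 25 and 0 to 13 in iWAT, 3 to 4 and 8 to 9 for progenitor-like against preadipocyte-like, 12 to 21 for iWAT against eWAT, 0 to 2 and 0 to 1 for the depot differences, and 10 to 29 and 0 to 28 for the pathway list in eWAT and iWAT. A group left with 1 library was taken to be as variable as the rest.

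The labels give replicate numbers 1 and 2 in each group, with no word that they mark a shared animal or day. Deviations of same-numbered libraries correlated with a median of 0.563 between WT-Veh and ob/ob-Rosi in iWAT and of 0.034 to 0.232 between the other pairs of groups. With the replicate block the calls were 26, 28 and 1 in eWAT, 19, 20 and 6 in iWAT, 3 and 1 for the depot differences and 32 and 4 for the pathway list in eWAT and iWAT. Depth limits the Irs1 values in leukocytes, which rest on few UMIs.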
